A study of Mus musculus with 2 samples.

Results

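Cohesin is the ring-shaped protein complex that holds sister chromatids together. The 9 genes described here encode its core subunits: the meiosis-specific Rec8, Smc1b, Stag3 and Rad21l, and the general Smc1a, Smc3, Rad21, Stag1 and Stag2. They were chosen by gene symbol, and all 9 were found among the 27998 genes of each of the 2 libraries. Single-cell RNA-seq had been performed on mouse fetal ovaries at embryonic day (E) 15.5 to ask whether loss of the glucocorticoid receptor (GR, gene Nr3c1) alters fetal oocytes. The wild-type (WT) library was made from 4 pooled embryos. The KO library was made from 2 pooled embryos that lacked exon 3 of Nr3c1 on both alleles (allele Nr3c1tm1.1Jda), a deletion made with the ubiquitous β-actin cre transgene Tmem163Tg(ACTB-cre)2Mrt and thus present in somatic as well as germ cells. Both groups carried Tg(Pou5f1-EGFP)2Mnn, a reporter of germ cells, and germ cells sorted by its fluorescence were mixed with sorted somatic cells at 60 to 40. Each genotype gave 1 library, so no test between genotypes was possible. Intervals in parentheses are 95% intervals (Poisson for levels, exact binomial for shares and ratios) that cover counting error only.

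In a cohesin ring, a pair of SMC proteins is closed by a kleisin protein, and a STAG protein binds the kleisin. Mitotic cells use SMC1A with SMC3, the kleisin RAD21, and STAG1 or STAG2. Germ cells add SMC1B, STAG3 and the kleisins REC8 and RAD21L, which build the chromosome axes along which homologues pair and recombine. SMC3 has no meiotic counterpart and is shared by both kinds of ring.

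Of 11430 WT and 17829 KO barcodes, 9045 and 15502 were kept, with a median of 15685 and 10194.5 UMIs (unique molecular identifiers, which count captured transcripts). Both libraries shared 27 kept barcodes. Cells were clustered without the 9 genes and the clusters named by marker genes, which gave 6788 WT and 10206 KO germ-like cells. Nr3c1, the deleted gene, was at 71.9 CPM (70.4 to 73.4) in WT and 11.6 CPM (11.01 to 12.2) in KO germ-like cells, where CPM stands for UMIs per 1000000 UMIs of the group of cells, so the deleted gene went with the labels. Sub-clusters of 126 WT and 706 KO cells carried germ markers together with somatic ones and were left out of every class. Scrublet called 51.6% and 74.2% of these cells doublets.

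The promoters of the 4 meiosis-specific genes are shown because these genes are all active in fetal germ cells but differ in timing. Each window runs from 250 bases before to 50 bases after the RefSeq start on GRCm38.p6 and is written 5′ to 3′ on the strand of the gene. Capitals mark the hexamer GCGGGA, which E2F factors can bind and which reads TCCCGC on the other strand, and the E-box CACGTG. The windows lie at chr14:55617916-55618215 on the plus strand for Rec8, chr15:85131908-85132207 on the minus strand for Smc1b, chr5:138280259-138280558 on the plus strand for Stag3 and chr2:151668484-151668783 on the minus strand for Rad21l.
Rec8: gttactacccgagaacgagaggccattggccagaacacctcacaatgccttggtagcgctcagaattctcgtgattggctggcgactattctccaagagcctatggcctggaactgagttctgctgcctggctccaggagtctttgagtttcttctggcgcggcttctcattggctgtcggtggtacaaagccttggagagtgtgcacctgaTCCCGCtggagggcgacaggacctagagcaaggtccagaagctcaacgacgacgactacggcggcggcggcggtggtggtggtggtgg
Smc1b: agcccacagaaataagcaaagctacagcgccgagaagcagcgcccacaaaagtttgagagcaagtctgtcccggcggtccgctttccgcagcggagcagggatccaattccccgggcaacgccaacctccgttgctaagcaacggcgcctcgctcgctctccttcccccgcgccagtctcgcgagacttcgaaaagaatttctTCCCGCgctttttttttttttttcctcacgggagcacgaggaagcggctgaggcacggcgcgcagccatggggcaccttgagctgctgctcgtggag
Stag3: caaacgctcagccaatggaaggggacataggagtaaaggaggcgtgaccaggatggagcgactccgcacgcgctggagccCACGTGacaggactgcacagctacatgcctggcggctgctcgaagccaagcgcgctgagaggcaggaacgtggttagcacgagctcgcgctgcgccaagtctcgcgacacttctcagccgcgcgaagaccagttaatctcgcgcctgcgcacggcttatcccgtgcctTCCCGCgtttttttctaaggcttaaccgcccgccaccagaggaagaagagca
Rad21l: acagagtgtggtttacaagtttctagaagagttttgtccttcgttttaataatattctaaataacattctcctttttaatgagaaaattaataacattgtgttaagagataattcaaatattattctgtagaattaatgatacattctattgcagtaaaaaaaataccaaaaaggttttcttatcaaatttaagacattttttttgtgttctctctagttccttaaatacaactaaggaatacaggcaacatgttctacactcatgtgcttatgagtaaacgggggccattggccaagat
The Rec8, Smc1b and Stag3 windows were 58.3%, 60% and 61.3% G and C, against 29% for Rad21l and a median of 52.7% over 32851 promoters. The E2F-type hexamer was found on either strand in 6 of the 7 windows available for the 9 genes, the exception being Rad21l, and in 19.98% of all promoters. The E-box was found in Stag3 alone and in 7.15% of all promoters, and CCAAT in 6 of 7 (all but Smc3) and in 37.4%. AGAACA, which GR can bind, was found in Rec8 and Rad21l and in 19.0% of all promoters. The full palindrome, AGAACA and its reverse complement with 3 bases between them, was in none of the 7 windows, nor was AGGTCA, the hexamer of retinoic acid receptors, which 16.3% of all promoters held. All were searched on both strands, and AGAACA lies within the palindrome. These are matches of letters and not binding sites.

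By the GENCODE M21 annotation of GRCm38, Rec8 lies on chromosome 14 (55618037 to 55625395), Smc1b on 15 (85064689 to 85131964), Stag3 on 5 (138280240 to 138312393), Rad21l on 2 (151645404 to 151668533), Smc1a on X (152016428 to 152062694), Smc3 on 19 (53600398 to 53645833), Rad21 on 15 (51962240 to 51991747), Stag1 on 9 (100597798 to 100959375) and Stag2 on X (42149317 to 42277185). All 9 are protein-coding, and no other annotated gene lay over the 3′ end of any of them, where the reads of this assay fall. The sole near copy found was Gm29763, whose transcript matched Smc3 over 616 bases at 94.5% identity and for which no counts were used. Each captured transcript gives 1 UMI whatever its length, so levels of different genes are compared in CPM with no division by length. Whether capture differed between genes was not checked, so comparisons between genes are of UMIs.

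Germ cells were named by stage as premeiotic-like (397 WT and 739 KO cells), meiotic entry-like (465 and 1349), recombination-like (3129 and 6859) and late prophase-like (2371 and 882). A further 426 WT and 377 KO germ-like cells, whose leading genes were mitochondrial, were given no stage. The recombination-like cells join 2 clusters of 1198 and 1931 WT and 3972 and 2887 KO cells, which the libraries fill in different proportions. Of the 11 premeiotic markers, 10 were higher in the premeiotic-like than in the meiotic entry-like cells in both libraries, with Rhox5 leading. Of the 7 markers of meiotic entry, however, 4 (Stra8, Zglp1, Msx1 and Gata2) were also higher there and 3 (Meioc, Ythdc2 and Rhox13) were higher in the meiotic entry-like cells. Stra8, a gatekeeper of meiotic entry, was at 1537 CPM in WT premeiotic-like and 804 CPM in WT meiotic entry-like cells, and at 1470 and 1058 CPM in KO. The names are therefore used as labels of clusters and do not place a cell before or after meiotic entry.

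Because the stage borders depend on the clustering, levels were also followed along a germ axis. This is the first principal component of the germ-like cells, computed without the 9 genes and with the library as a covariate, and cut into 10 bins. Its early end was led by Stra8, and its late end by Sycp1, which encodes the central filament of the synaptonemal complex. The component held 4.67% of the variance. In WT, Stra8 was at 978 CPM in bin 1, 49.8 CPM in bin 7 and 108.8 CPM in bin 10, and in KO at 1343, 54.8 and 41.2 CPM. The late marker Sohlh1 was at 34.2 CPM in WT and 5.25 CPM in KO in bin 10. Early and late therefore name the ends of the axis and not times.

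Rec8 encodes the kleisin that keeps sister chromatids together through the meiotic divisions. Premeiotic-like cells held 131 CPM (123.5 to 138) in WT and 141 CPM (135 to 148) in KO, and meiotic entry-like cells 15.4 CPM (12.95 to 18.2) and 18.5 CPM (16.65 to 20.5). Recombination-like cells held 1.48 CPM (1.14 to 1.90) in WT and 1.42 CPM (1.15 to 1.725) in KO, and late prophase-like cells 3.00 CPM (2.56 to 3.502) and 3.295 CPM (2.496 to 4.27). The transcript was thus highest in premeiotic-like cells in both libraries, and within each library no interval of a stage overlapped that of another. Of 2371 WT late prophase-like cells, 108 held a Rec8 UMI and 12 held 3 or more, with up to 11 in a cell. The intervals treat UMIs as independent and do not cover this. From premeiotic-like to recombination-like cells the log2 difference was 6.46 (6.095 to 6.85) in WT and 6.64 (6.35 to 6.95) in KO.

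Premeiotic-like cells were 5.85% of WT germ-like cells and held 77.2% of their Rec8 UMIs, and were 7.24% of KO germ-like cells and held 75.9%. At least 1 Rec8 UMI was found in 75.6% (71.0 to 79.7) of WT and 67.0% (63.5 to 70.4) of KO premeiotic-like cells, at medians of 25059 and 16085 UMIs per cell. After each cell was thinned to 3000 UMIs, the shares were 24.4% (20.3 to 29.0) and 31.1% (27.8 to 34.6), so the order of the libraries in the first pair of shares did not hold at equal depth. Single cells held up to 24 Rec8 UMIs in WT and 13 in KO.

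Within the meiotic entry-like cells Rec8 was highest in bin 1 of the axis. In WT it was at 25.8 CPM (19.99 to 32.8) in bin 1, 14.5 CPM (10.6 to 19.3) in bin 2, 6.72 CPM (3.58 to 11.5) in bin 3 and 9.84 CPM (5.24 to 16.8) over bins 4 to 10. In KO the values were 31.3 CPM (27.2 to 35.8), 11.4 CPM (9.155 to 13.9), 12.4 CPM (8.84 to 16.85) and 12.6 CPM (7.82 to 19.3), so the level was lower after bin 1 in both libraries and the later bins of KO had overlapping intervals. Over all germ-like cells, Rec8 was at 70.6 CPM in bin 1 and 2.69 CPM in bin 7 in WT, and at 95.2 and 1.23 CPM in KO.

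**Figure D1:**
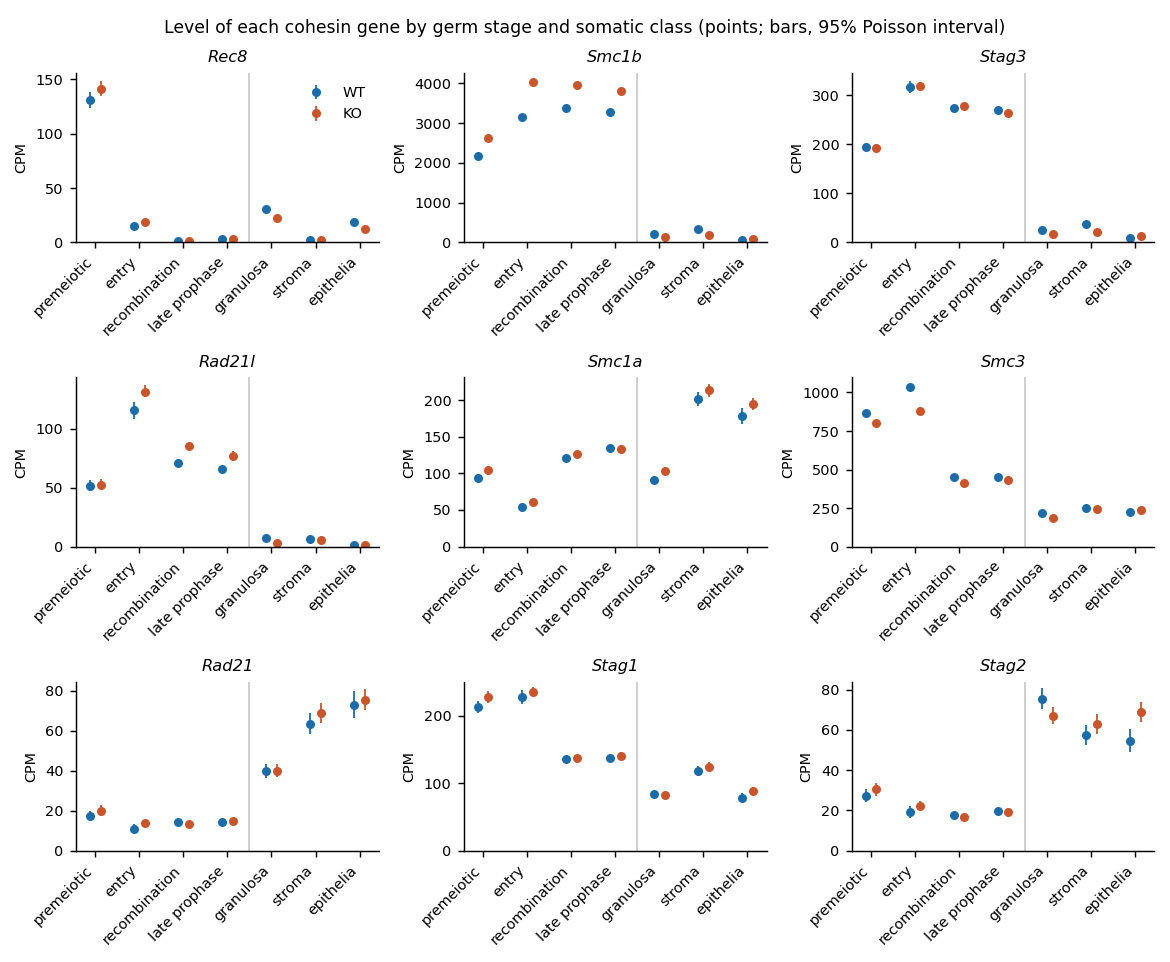
CPM of each of the 9 cohesin genes in the germ stages and the main somatic classes, for WT (blue) and KO (orange), with 95% Poisson intervals as bars. Rec8 is highest in premeiotic-like cells (131 and 141 CPM) and present again in granulosa-like and epithelia-like cells, Smc1b, Stag3 and Rad21l are lower in somatic classes than in germ stages, and Rad21 and Stag2 are higher there.

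Rad21l encodes the other meiotic kleisin, which acts in early prophase. It was at 51.6 CPM (47.2 to 56.3) in WT premeiotic-like cells and 52.8 CPM (48.7 to 57.1) in KO, and highest in meiotic entry-like cells, at 116 CPM (109 to 123) and 132 CPM (127 to 137). Recombination-like cells held 71.5 CPM (69.0 to 74.1) and 85.3 CPM (83.2 to 87.5), and late prophase-like cells 66.4 CPM (64.2 to 68.6) and 77.2 CPM (73.1 to 81.4). Rad21l was thus lowest in the stage where Rec8 was highest. Along the axis it peaked in bin 3, at 106.5 CPM in WT and 144.5 CPM in KO, and was at 56.9 and 57.9 CPM in bin 10.

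Rad21, the general kleisin, stayed between 11.1 and 17.3 CPM across the germ stages in WT and between 13.6 and 19.95 CPM in KO. Of the UMIs of the 3 kleisin genes in WT premeiotic-like cells, Rec8 took 65.5% (63.3 to 67.6), Rad21l 25.9% (23.9 to 27.9) and Rad21 8.67% (7.46 to 10.0). In WT meiotic entry-like cells Rec8 took 10.8% (9.18 to 12.65) and Rad21l 81.4% (79.15 to 83.5). The leading kleisin transcript therefore differed between the premeiotic-like and the meiotic entry-like cells, and Rad21l kept 81.8% and 79.2% in the later WT stages, with Rad21 at 16.5% and 17.3%. KO cells had the same leading kleisins, with Rec8 at 66.0% (64.1 to 67.85) in premeiotic-like and 11.3% (10.2 to 12.4) in meiotic entry-like cells, and Rad21l at 24.7% and 80.3%. These are shares of UMIs and not of protein.

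**Figure D2:**
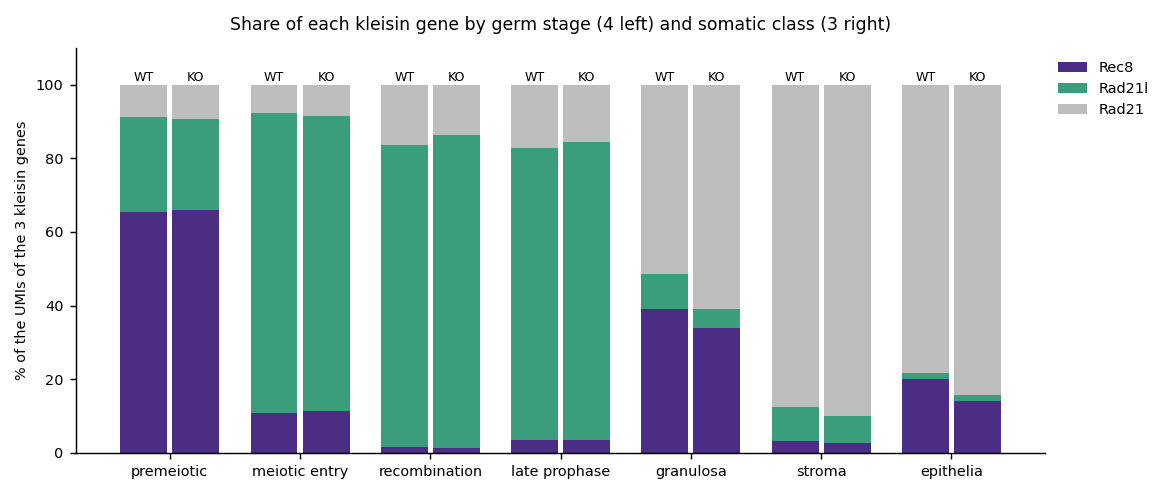
Share in % of the UMIs of the 3 kleisin genes taken by Rec8, Rad21l and Rad21 in each germ stage and main somatic class, for WT and KO. Rec8 takes 65.5% in WT premeiotic-like cells, Rad21l 79.2% to 81.8% in the other WT germ stages, and Rad21 is the largest share in every somatic class.

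Smc1b, which replaces Smc1a in many meiotic rings, was the most abundant of the 9 transcripts in germ-like cells. In WT it was at 2173 CPM (2144 to 2203) in premeiotic-like, 3145 CPM (3109 to 3182) in meiotic entry-like, 3371 CPM (3354 to 3389) in recombination-like and 3282 CPM (3267 to 3298) in late prophase-like cells. In KO the same stages held 2634 CPM (2605 to 2664), 4023 CPM (3996 to 4051), 3959 CPM (3944 to 3973) and 3812 CPM (3783 to 3841). Of the UMIs of Smc1a and Smc1b together, Smc1b took from 95.9% in premeiotic-like to 98.3% in meiotic entry-like cells in WT, and 96.2% and 98.5% in KO.

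Stag3, the meiotic counterpart of Stag1 and Stag2, was at 195 CPM (186 to 204) in WT premeiotic-like cells, 317.5 CPM (306 to 329) in meiotic entry-like cells, and 275 and 269 CPM in the later stages. KO cells held 193, 319, 278 and 265 CPM, with intervals of the log2 ratio that included 0 at each stage. Stag3 took 44.8% (43.3 to 46.3) of the UMIs of the 3 STAG genes in WT premeiotic-like cells and 64.1% (63.4 to 64.8) in recombination-like cells, and Stag1 48.95% (47.4 to 50.5) and 31.8% (31.1 to 32.5). Stag1 thus led in the former and Stag3 in the latter, and in KO the Stag3 share was 42.8% and 64.3%.

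Smc3, the subunit that all rings share, was at 865 CPM (846 to 883) in WT premeiotic-like and 1033 CPM (1012 to 1054) in meiotic entry-like cells, and at 449.8 CPM (443.5 to 456) and 450.1 CPM (444 to 456) in the later stages. In KO the values were 799.5 CPM (783.5 to 816), 882 CPM (869 to 895), 412 CPM (407 to 417) and 430 CPM (420.3 to 439.9). The premeiotic-like and meiotic entry-like cells were above the other stages in both libraries, with intervals that did not overlap.

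Smc1a had its lowest level where Smc3 had its highest. Meiotic entry-like cells held 54.5 CPM (49.8 to 59.55) in WT and 61.0 CPM (57.65 to 64.6) in KO, and late prophase-like cells held 134 CPM (131 to 137) and 133.5 CPM (128 to 139). From bin 1 to bin 10 of the axis it went from 72.6 to 150 CPM in WT, a log2 difference of 1.05 (0.93 to 1.17), and from 81.5 to 166 CPM in KO, a difference of 1.03 (0.92 to 1.13).

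Stag1 was at 213 CPM (204 to 222) in WT premeiotic-like and 228 CPM (218 to 238) in meiotic entry-like cells against 136.5 CPM (133 to 140.1) and 138 CPM (135 to 141) in recombination-like and late prophase-like cells. In KO it was at 228, 235, 138 and 140.4 CPM. Stag2 lay between 17.7 and 27.2 CPM in WT and between 16.6 and 30.5 CPM in KO, highest in premeiotic-like cells in both. Between the highest and the lowest WT stage, 4 of 9 members (Rec8, Rad21l, Smc1a and Smc3) differed by 1 or more on the log2 scale, where 46.5% of 12343 genes did. By that share the 9 genes did not stand apart from other genes. The count was 1 with the members kept in the clustering and 2 with common limits on cells in both libraries, where no meiotic entry-like cluster was found.

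**Figure D3:**
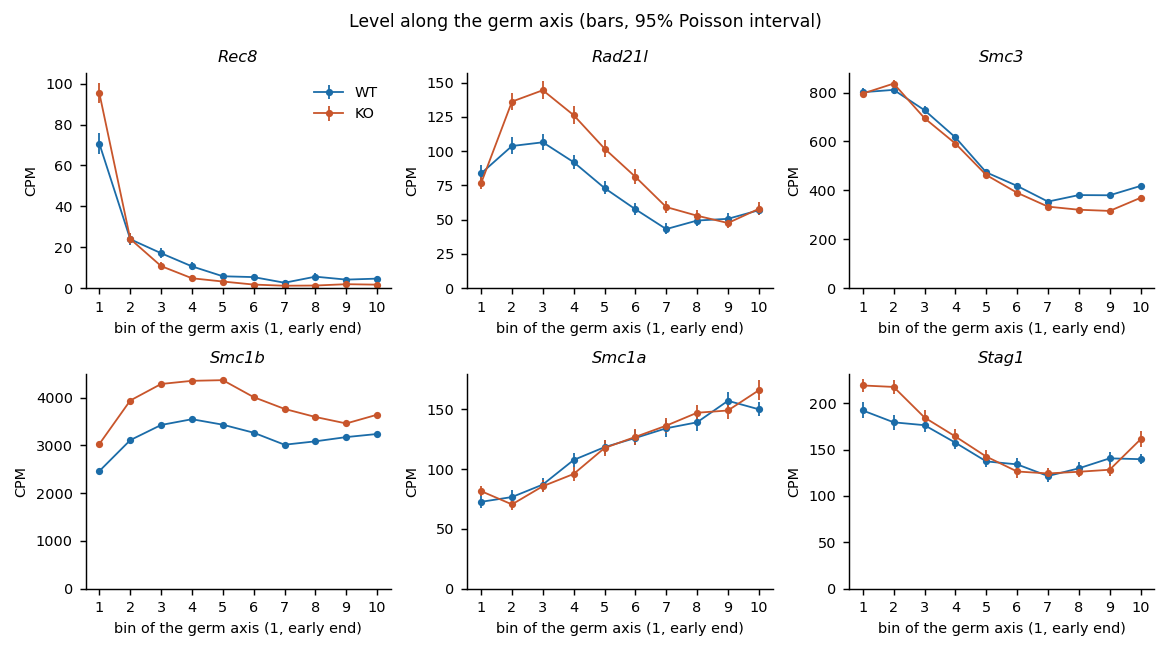
CPM along the 10 bins of the germ axis (bin 1 is the early end) for 6 of the cohesin genes, WT (blue) and KO (orange), with 95% Poisson intervals as bars. Rec8 is at 70.6 (WT) and 95.2 CPM (KO) in bin 1 and at or under 5.85 CPM from bin 5 on, and Rad21l peaks in bin 3. Smc3 is lower and Smc1a higher in bin 10 than in bin 1, and Smc1b is higher in KO in all 10 bins.

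Germ-like cells were set against somatic-like cells, which take in every somatic class but the erythroid-like one. Smc1b was at 3203 CPM in WT germ-like and 207 CPM in WT somatic-like cells, a log2 difference of 3.95 (3.91 to 3.99). Rad21l was at 71.2 and 5.54 CPM, a difference of 3.685 (3.45 to 3.925). Stag3 was at 269 and 24.9 CPM (3.43), and Smc3 at 529 and 227 CPM (1.22). These 4 of 9 were higher in germ-like cells by 1 or more, where 27.6% of 13886 genes were. Rad21, at 14.4 and 54.8 CPM (-1.925, interval -2.03 to -1.825), and Stag2, at 19.5 and 64.9 CPM (-1.73, interval -1.82 to -1.64), were lower by 1 or more. That is 2 of 9, where 32.2% of genes were.

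Stag1 (0.68), Smc1a (-0.31) and Rec8 (-0.38) differed by less between germ-like and somatic-like cells in WT. In KO the log2 differences were 4.42 for Smc1b, 4.42 for Rad21l, 3.755 for Stag3, 1.28 for Smc3, -2.03 for Rad21 and -1.78 for Stag2. Rec8 was the member whose sign differed, at -0.38 (-0.53 to -0.23) in WT and 0.51 (0.37 to 0.65) in KO.

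Somatic-like cells also held UMIs of genes that mark germ cells. The size of this carry-over was measured with 8 germ markers (Dazl, Ddx4, Mael, Taf7l, Hormad1, Sycp1, Sycp3 and Tex101), each as a percent of its own CPM in germ-like cells. The median of the 8 with its range was 7.70% (5.36% to 10.4%) in WT granulosa-like cells, 10.3% (9.58% to 11.2%) in stroma-like and 2.23% (1.63% to 3.41%) in epithelia-like cells, and 4.55% (3.21% to 6.03%), 5.18% (4.865% to 7.29%) and 2.70% (1.995% to 3.79%) in KO. Smc1b was at 6.65%, 10.2% and 1.745% of its germ-like level in the WT classes and at 3.74%, 4.74% and 2.33% in KO, inside the range of the markers in 5 of 6 and below it in KO stroma-like cells. Rad21l was at 10.2%, 9.30% and 2.23% in WT and 3.87%, 6.26% and 1.86% in KO, inside the range in 4 of 6 and below it in the other two. Neither gene stood above the carry-over of germ transcripts in any of these classes. Stag3, at 9.35%, 13.7% and 3.599% in WT and 6.57%, 7.92% and 4.78% in KO, was above the highest marker in 5 of 6.

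Granulosa-like cells are the supporting cells that enclose oocytes, and epithelia-like cells cover the ovary. As a percent of its level over all germ-like cells, Rec8 stood far above the markers in both. It was at 30.3 CPM (27.2 to 33.6) in WT granulosa-like cells (349 UMIs in 889 cells) and 22.3 CPM (20 to 24.8) in KO (336 in 1785), or 222% and 123% of its level over all germ-like cells. Epithelia-like cells held 18.7 CPM (15.5 to 22.4) in WT (118 UMIs in 365 cells) and 12.5 CPM (10.5 to 14.8) in KO (136 in 941), or 137% and 68.9%. Stroma-like cells held 2.40 CPM (1.48 to 3.67) in WT (21 UMIs in 779 cells) and 2.05 CPM (1.28 to 3.10) in KO (22 in 1577), or 17.6% and 11.3%. A single WT stroma-like cell held 11 of the 21 UMIs and a single KO cell 8 of the 22. The stroma-like intervals treat these UMIs as independent and do not cover this. The somatic classes were not pure. A sub-cluster of 23 WT and 48 KO stroma-like cells was led within its class by the granulosa markers Irx3, Fst and Wnt6 among others, and held 4 and 8 of the stroma-like Rec8 UMIs (9.09 and 11.4 CPM). A sub-cluster of 37 WT and 77 KO epithelia-like cells was led by stromal genes (Ptn, Col1a1, Mfap4) and held 4 and 0 Rec8 UMIs. Their part in the class levels was not tested. Thinned to 3000 UMIs, Rec8 in epithelia-like cells was 239% of its germ-like level in WT and 113% in KO, so whether the KO level lay below or above that of germ-like cells changed with thinning, and in KO granulosa-like cells it was 189.5%. Carry-over at the median of the markers would give 1.05 CPM in WT granulosa-like, 0.304 in epithelia-like and 1.405 CPM in stroma-like cells. These values take the Rec8 level over all WT germ-like cells, 13.6 CPM, as that of the carried RNA. Premeiotic-like cells were at 131 CPM and held 77.2% of the Rec8 UMIs of WT germ-like cells. Carry-over from that stage alone would give higher values and was not tested.

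At least 1 Rec8 UMI was found in 25.4% (22.6 to 28.4) of WT granulosa-like cells at a median of 12475 UMIs, in 21.1% (17.0 to 25.65) of epithelia-like cells at 16444 and in 1.28% (0.617 to 2.35) of stroma-like cells at 9902. In KO the shares were 13.9% (12.3 to 15.6) at 8180 UMIs, 11.5% (9.51 to 13.7) at 10844 and 0.824% (0.440 to 1.41) at 6113. Thinned to 3000 UMIs per cell, they were 9.22% (7.403 to 11.3), 6.30% (4.04 to 9.305) and 0.642% (0.209 to 1.49) in WT and 5.99% (4.94 to 7.20), 3.93% (2.78 to 5.38) and 0.190% (0.03925 to 0.555) in KO, so the stroma-like cells stayed lowest at equal depth. At least 2 Rec8 UMIs were found in 77 WT and 71 KO granulosa-like cells, in 29 and 22 epithelia-like cells and in 2 and 3 stroma-like cells. The 6 granulosa-like sub-clusters held between 25.7 and 36.3 CPM in WT and between 11.6 and 36.7 CPM in KO, so Rec8 was present in each of them.

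Removal of cells with markers of another class left Rec8 at 31.2 CPM in WT and 22.1 CPM in KO granulosa-like cells, while the carry-over median went to 2.06% and 2.45%. In epithelia-like cells Rec8 was then at 18.7 and 12.6 CPM. Stroma-like cells then held 1.20 and 1.01 CPM, and 0.633 and 0.710 CPM without Scrublet doublets, where the carry-over median was 6.16% and 4.02%.

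Within epithelia-like cells, Rec8 was at 22.4 CPM (18.2 to 27.3) in WT outside the cycling sub-clusters and at 10.4 CPM (6.36 to 16.1) in them, and at 16.3 CPM (13.5 to 19.6) and 5.31 CPM (3.24 to 8.20) in KO. No Rec8 UMI was seen in 30 WT endothelia-like cells or in 22 WT and 48 KO perivascular-like cells, and 3 counts there, the limit that a count of 0 allows, would be 8.09, 12.4 and 7.84 CPM. A level like that of stroma-like cells was therefore not detectable where the count was 0. Rec8 UMIs numbered 3 in 136 KO endothelia-like cells (2.15 CPM), where the carry-over median was 23.1%. Immune-like cells held 3 in WT and 1 in KO (7.10 and 1.875 CPM), with carry-over at 1.60% and 13.3%. Erythroid-like cells held 1 and 10 (2.71 and 11.35 CPM), with carry-over at 36.9% and 53.8%.

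**Figure D4:**
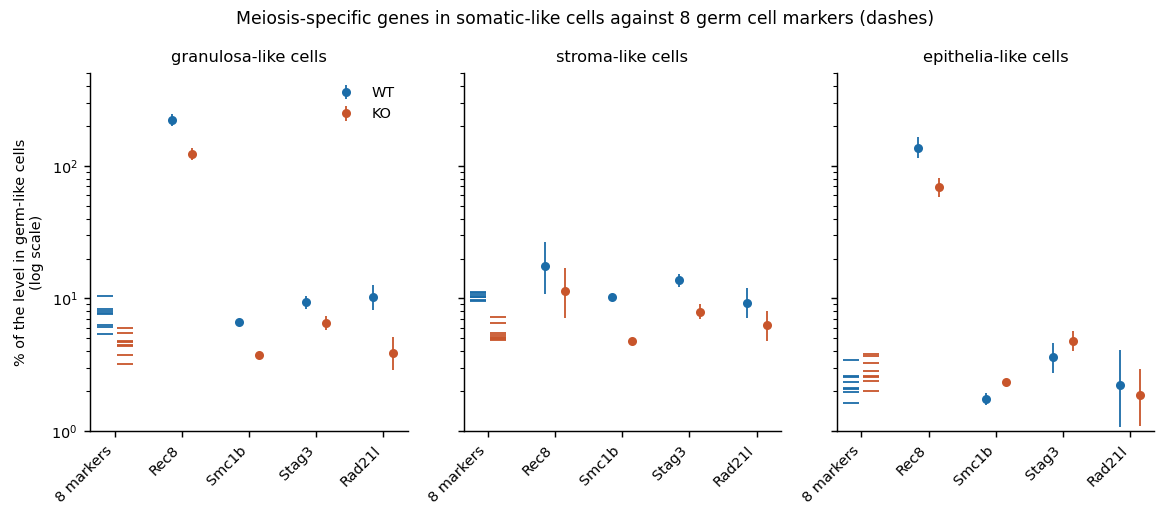
Level in somatic classes as % of the level of the same gene in germ-like cells, on a log axis, for the 8 germ markers (dashes) and for Rec8, Smc1b, Stag3 and Rad21l (points with 95% counting intervals), in WT (blue) and KO (orange). Rec8 lies at 222% and 123% in granulosa-like and at 137% and 68.9% in epithelia-like cells, far above the markers, while Smc1b, Stag3 and Rad21l lie near them.

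The general subunits were present in all main somatic classes. In WT granulosa-like, stroma-like and epithelia-like cells, Smc3 was at 219, 248 and 226 CPM, and Stag1 at 83.7, 118 and 78.6 CPM. Smc1a was at 91.3 CPM (85.8 to 97.0), 201 CPM (192 to 211) and 178 CPM (168 to 189), and Rad21 at 39.7 CPM (36.2 to 43.55), 63.4 CPM (58.2 to 68.9) and 73.0 CPM (66.5 to 80.0). Both were lowest in granulosa-like cells, with intervals apart from those of the other classes. Stag2 was highest there, at 75.5 CPM (70.55 to 80.7) against 57.2 CPM (52.3 to 62.45) and 54.45 CPM (48.8 to 60.5), which overlapped. In KO its levels were 67.0 CPM (62.95 to 71.3), 62.8 CPM (58.1 to 67.7) and 68.9 CPM (64.1 to 74.05), so the WT order did not hold there. In KO, Smc3 was at 187, 244.5 and 238 CPM, Smc1a at 103, 213 and 194.5 CPM and Rad21 at 40.1, 68.8 and 75.65 CPM. Of the kleisin UMIs of granulosa-like cells, Rec8 took 39.2% (35.95 to 42.5) in WT and 33.9% (30.9 to 36.9) in KO, beside 51.4% and 60.9% for Rad21.

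Rad21 was the member with the largest excess in dividing somatic cells. Sub-clusters marked by cell cycle genes such as Mki67 and Top2a held 121 CPM (107 to 136.5) of Rad21 in WT stroma-like cells against 43.45 CPM (38.5 to 48.8) in the rest, a log2 difference of 1.48 (1.23 to 1.725), and of 1.60 (1.39 to 1.81) in KO. In WT epithelia-like cells the levels were 114 CPM (99.4 to 130.2) and 55.05 CPM (48.3 to 62.45), a difference of 1.05 (0.78 to 1.32), and of 1.05 (0.85 to 1.25) in KO. Rad21 was 1 of 9 members higher by 1 or more in cycling WT cells, where 3.60% of genes were in stroma-like and 3.06% in epithelia-like cells. Smc1a differed by 0.78 (0.64 to 0.92) and 0.59 (0.42 to 0.77) in the same WT classes, Smc3 by 0.33 (0.19 to 0.46) and 0.26 (0.10 to 0.42), Stag1 by 0.30 (0.10 to 0.49) and 0.12 (-0.16 to 0.40), and Stag2 by 0.83 (0.56 to 1.09) and -0.11 (-0.46 to 0.23).

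KO and WT were next compared over all germ-like cells, where 3 of 9 members differed by 0.25 or more on the log2 scale and 28.0% of 13795 genes did. These were Rec8, at 13.6 CPM in WT and 18.2 CPM in KO, a log2 ratio of KO over WT of 0.41 (0.32 to 0.51), Rad21l, at 71.2 and 89.25 CPM (0.33, interval 0.28 to 0.37), and Smc1b, at 3203 and 3813 CPM (0.25, interval 0.25 to 0.26). All 3 are meiosis-specific and were higher in KO, where the median over all genes was -0.05. The log2 ratio was 0.12 (0.09 to 0.15) for Stag1, 0.03 (0.01 to 0.05) for Stag3, 0.01 (-0.01 to 0.02) for Smc3, 0.00 (-0.10 to 0.10) for Rad21, -0.02 (-0.11 to 0.06) for Stag2 and -0.06 (-0.09 to -0.02) for Smc1a. With the limit of 0.25 set on the natural log of UMIs per 10000 plus 1, 0 of 9 members passed, where 0.174% of genes did. Smc1b lay between 0.23 and 0.29 over the alternatives run, on both sides of the limit. The share of members past 0.25 was near the background, so the count sets the 9 genes apart from others by neither rule.

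The log2 ratio of Rec8 was smaller within each stage than over all germ-like cells. It was 0.11 (0.01 to 0.22) in premeiotic-like, 0.26 (-0.02 to 0.56) in meiotic entry-like, -0.07 (-0.54 to 0.41) in recombination-like and 0.13 (-0.33 to 0.58) in late prophase-like cells. Premeiotic-like and meiotic entry-like cells, where Rec8 is highest, were 7.24% and 13.2% of KO but 5.85% and 6.85% of WT germ-like cells. More cells of a stage and more RNA per cell cannot be told apart in the value over all germ-like cells.

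Smc1b was higher in KO at every stage, by 0.28 (0.25 to 0.30), 0.36 (0.34 to 0.37), 0.23 (0.22 to 0.24) and 0.22 (0.20 to 0.23) on the log2 scale from premeiotic-like to late prophase-like cells, and in all 10 bins of the axis, by 0.12 to 0.35. The bins did not hold the same stages or depths in both libraries. In bin 10, 780 of 1042 KO cells were recombination-like and 529 of 658 WT cells late prophase-like. Median UMIs per cell went from 15816 in bin 1 to 28249.5 in bin 10 in WT, and from 14515 to 5850 in KO. The part of stage and depth in the differences by bin was not tested. Rad21l was at 0.03 (-0.14 to 0.20), 0.19 (0.08 to 0.29), 0.26 (0.19 to 0.32) and 0.22 (0.13 to 0.31), with an interval above 0 in 6 of 10 bins. The interval for Rad21l thus included 0 in premeiotic-like cells and lay above it in the later stages. Smc3 was lower in KO at every stage, at -0.11 (-0.16 to -0.07), -0.23 (-0.26 to -0.19), -0.13 (-0.15 to -0.10) and -0.07 (-0.10 to -0.03), none of these past 0.25, and lower in 9 of 10 bins, with bin 9 past the limit at -0.27.

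Members past 0.25 numbered 1 in premeiotic-like cells (Smc1b), where 25.1% of genes passed, and 3 in meiotic entry-like cells (Smc1b, Rec8 and Rad21, the last at 0.31, interval -0.02 to 0.66), where 27.2% did. They numbered 1 in recombination-like cells (Rad21l, just past the limit in a class that joins 2 clusters), where 23.2% did, and 0 in late prophase-like cells, where 24.0% did. From bin 3 of the axis on, Rec8 was lower in KO, with log2 ratios from -2.10 to -0.66, in bins where it was at or under 17.1 CPM. In bin 3, 42 premeiotic-like cells held 177 of the 211 Rec8 UMIs in WT, and 56 held 76 of 135 in KO. Over bins 4 to 10, 80 WT and 37 KO premeiotic-like cells held 289 and 29 Rec8 UMIs. Within WT premeiotic-like cells Rec8 was at 142, 124, 148 and 108 CPM in bins 1, 2, 3 and 4 to 10. In KO it was at 158, 126.5, 79.0 and 51.0 CPM. The intervals of the libraries overlapped in bins 1 and 2 and were apart in the later bins, KO lower. The ratio over the whole premeiotic-like stage did not hold in those later bins. Premeiotic-like cells in bins 8 to 10 numbered 31 in WT and 1 in KO. The part of premeiotic-like cells in the lower KO values was not tested.

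**Figure D5:**
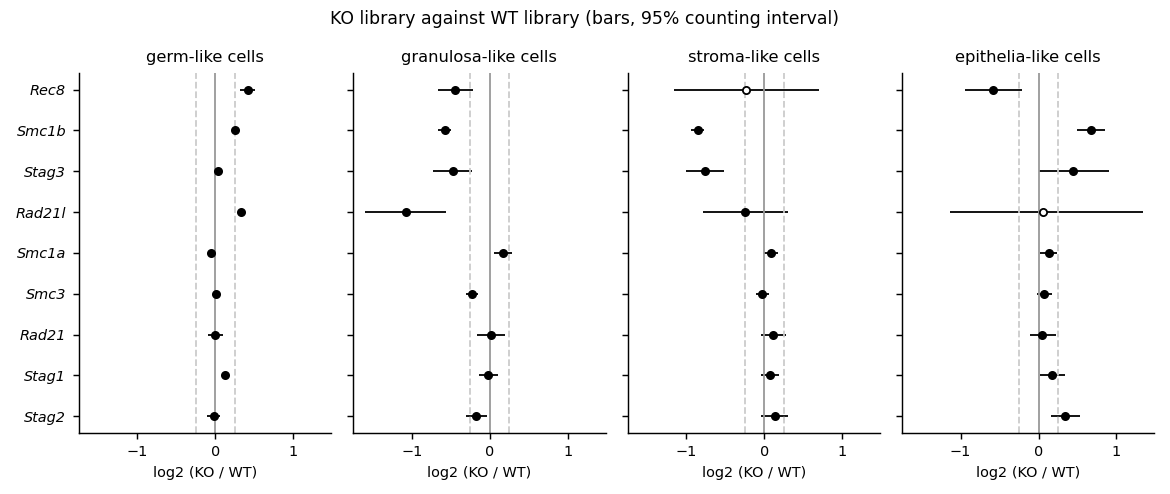
log2 of KO over WT with 95% counting intervals for the 9 cohesin genes in germ-like, granulosa-like, stroma-like and epithelia-like cells. In germ-like cells the values lie between -0.06 and 0.41, and in granulosa-like cells the 4 meiosis-specific genes lie between -1.08 and -0.44.

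In granulosa-like cells, the 4 meiosis-specific members of the 9 differed between the libraries by 0.25 or more, where 20.4% of 10610 genes did. Rec8 was at -0.44 (-0.66 to -0.22), Smc1b at -0.58 (-0.66 to -0.50), Stag3 at -0.48 (-0.72 to -0.23) and Rad21l at -1.08 (-1.605 to -0.56). The 8 carry-over markers were lower in KO too, 8 of 8, with a median of -0.61 and a range of -0.86 to -0.41. In stroma-like cells 2 members passed, where 20.0% of 9997 genes did: Smc1b at -0.85 (-0.94 to -0.77) and Stag3 at -0.76 (-1.01 to -0.51), beside a marker median of -0.91 with 8 of 8 lower. In epithelia-like cells 4 passed, where 19.1% of 9405 genes did: Smc1b at 0.67 (0.49 to 0.85), Stag3 at 0.44 (0.00 to 0.90), Stag2 at 0.34 (0.15 to 0.53) and Rec8 at -0.58 (-0.95 to -0.21), beside a marker median of 0.42 with 0 of 8 lower.

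Smc1b and Stag3 thus had the sign of the germ markers in each of these classes. Without the cells that held markers of another class, they were at 0.54 and 0.37 in granulosa-like cells, opposite in sign, and signs also reversed in stroma-like cells under other settings, so the ratios of both genes give no direction for granulosa-like and stroma-like cells. Rec8 had the opposite sign to the markers in epithelia-like cells. In granulosa-like cells its log2 ratio lay between -0.66 and -0.39 under every alternative run. It was -0.50 without the cells that held markers of another class.

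In a list of 27 cohesin regulators and meiotic telomere genes, 24 could be matched and 22 had at least 100 UMIs in WT. Of these, 12 were higher in germ-like than in somatic-like cells by 1 or more on the log2 scale and 2 were lower, beside 27.6% and 32.2% of all genes, with a median of 1.08 where that of all genes was 0.00. The 12 include the telomere genes Ccdc155 and Sun1, the latter at 1.40. Highest were Meikin, a protector of cohesin at meiotic centromeres, at 4.57, Ccdc155 (Kash5), which links meiotic telomeres to the cytoskeleton, at 3.62, and Bub1, a checkpoint kinase at centromeres, at 3.24 (278 and 29.5 CPM). Lowest were Aurkb, a mitotic kinase, at -4.83 (0.6975 and 19.8 CPM), Hdac8, the deacetylase of SMC3, at -2.56, and Ppp2r5a, a phosphatase subunit, at -0.73.

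Of 16 genes of condensin, of the SMC5/6 complex and Smchd1, 15 had at least 100 UMIs. Of these, 4 were higher in germ-like cells by 1 or more and 3 lower, beside the same background of 27.6% and 32.2%, with a median of 0.61. Highest were the condensin genes Ncapg at 3.10, Smc4 at 2.47 and Ncapg2 at 2.03, and lowest were Nsmce4a at -2.23, Nsmce1 at -1.545 and Ndnl2 (Nsmce3) at -1.22, all of the SMC5/6 complex. Between KO and WT germ-like cells, 1 of 23 genes of the regulator and telomere list and 1 of 15 SMC genes differed by 0.25 or more, where 28.0% of all genes did. They were Aurkb at -0.26, on 84 WT and 71 KO UMIs and with an interval that included 0 (-0.73 to 0.22), and Ndnl2 at -0.33 (-0.40 to -0.25). The list medians were -0.05 and -0.03, beside -0.05 over all genes.

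Over 11 WT clusters, the genes whose levels followed Smc1b most closely were Stk31 (Pearson r = 0.998), Tex101 (0.997) and Figla (0.997), with r of 0.996, 0.991 and 0.998 over 12 KO clusters. Those most like Stag3 were Larp1b (0.998), Mief1 (0.997) and Tex101 (0.9965), and those most like Rad21l were Tc2n (0.998), Mcmdc2 (0.997) and Taf7l (0.996). Those most like Rec8 were Ddt (0.953), Mrps15 (0.944) and Ubl4a (0.926), at 0.862, 0.399 and 0.7485 in KO. The clusters share a library and mix germ with somatic cells, so these values only describe likeness, which was lower for Rec8 than for the other 3 among the 10611 genes compared.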

How the data were processed

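Droplet libraries (10x Genomics 3′ chemistry) had been made from sorted, remixed cells of E15.5 ovaries, 1 per genotype. The deposited values are raw UMI counts per gene and cell, which the authors made with Cell Ranger (3.0.2 per the file headers) against mm10, with no normalization. The study analysed them in Seurat 3.2.3. Embryos were pooled within a genotype, so the libraries hold no biological replicate.

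Cells were kept at 1500 to 6500 genes and 5500 to 40000 UMIs in WT, 1200 to 5500 genes and 3000 to 30000 UMIs in KO, and under 10% mitochondrial UMIs. Counts were clustered in Scanpy 1.11.5 (2000 variable genes without the 9 members, 30 components, Leiden resolution 0.5), and clusters were named where at least 3 markers of a list were detected. How markers were turned into names was decided with the clusters in view. Doublets were called with Scrublet and not removed, except through the mixed sub-clusters, those with carry-over markers above 25% of the germ-like level.

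Levels are summed UMIs per 1000000 (CPM). With 1 library per group there was no test, and genes were called, given a minimum of 100 UMIs in both sides together, by size alone, at a log2 ratio of 0.25 between genotypes or 1 between cell types. Intervals of ratios were run on simulated Poisson counts, the kind they are built for, which left out the spread between cells and embryos. Median UMIs per cell were 15685 in WT and 10194.5 in KO, out of 168483330 and 186117981 UMIs in all. UMI depth limits precision, and the intervals leave out differences between embryos.

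The named genes are all 9 members and, in each of the lists of cohesin regulators and other SMC genes, the 3 highest and 3 lowest between germ-like and somatic-like WT cells with at least 100 UMIs, any member past a size limit between genotypes, and for each meiosis-specific member the 3 genes most like it across clusters of at least 25 cells. The members and lists were chosen with earlier results of these data known. Of 27998 gene IDs, 27722 were found in GENCODE M21, and promoters came from RefSeq for 7 of the 9 members. Alternatives covered thinning to 3000 UMIs, doublets, cells with markers of another class, limits on cells, clustering with the members, resolution 1, scaling (edgeR 4.0.16 TMM and DESeq2 1.42.0 size factors on summed counts), means over cells, no minimum of UMIs and a size limit of 0.5.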

Additional observations from a re-analysis of the deposited data

Results flagged for a closer look

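Several members differed between KO and WT in opposite directions in germ-like cells and in some somatic-like classes, with counting intervals that excluded 0 on both sides. Whether these differences themselves differ was not tested, since each genotype has 1 library. Rec8 had a log2 ratio of KO over WT of 0.41 in germ-like cells, -0.44 in granulosa-like cells and -0.58 in epithelia-like cells. Within the germ stages its ratio lay between -0.07 and 0.26. Smc1b had 0.25 in germ-like, -0.58 in granulosa-like and -0.85 in stroma-like cells, Stag3 0.0318, -0.48 and -0.76, and Rad21l 0.33 in germ-like and -1.08 in granulosa-like cells. In epithelia-like cells Smc1b and Stag3 were higher in KO, at 0.67 and 0.44. The 8 germ markers stood at a median of -0.61 in granulosa-like, -0.91 in stroma-like and 0.42 in epithelia-like cells beside these values. The signs of Smc1b and Stag3 in granulosa-like and stroma-like cells reversed under other settings, so their ratios give no direction there. Smc1a had -0.0555 in germ-like cells, 0.17 in granulosa-like cells and 0.13 in epithelia-like cells, all within 0.25 of 0.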

How the results depend on the processing

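The intervals given cover counting error alone and leave out the spread between cells and between embryos. Depth limits Rec8 in stroma-like and smaller classes. The 6 members past 1 between germ-like and somatic-like cells became at most 7 under the alternatives run. With a size limit of 0.5, members past it between genotypes went from 3 to 0 in germ-like cells, from 5 to 0 over the germ stages and from 10 to 6 over the somatic classes, by construction. Thinning to 3000 UMIs also gave 6 over the somatic classes, and Leiden resolution 1 gave 8 over the germ stages. No share over all genes is given for these settings, so these counts do not set the members against other genes. The members that differed across stages, 4, were 1 with members kept in the clustering and 2 with common limits on cells. Both settings lost the meiotic entry-like cluster, so its values could not be given. The Rec8 level of WT granulosa-like cells as a percent of germ-like cells, 222%, was 388% thinned and 302.5% with common limits. The Rec8 share of kleisin UMIs in WT premeiotic-like cells, 65.5%, was 61.5% and 53.0%. The causes of these shifts were not tested.

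Reversed values were all of germ transcripts in somatic classes. In granulosa-like cells the log2 ratio of KO over WT of Smc1b became 0.13 without Scrublet doublets, 0.54 without cells with markers of another class, 0.98 with common limits and 0.75 with mixed sub-clusters kept, an alternative chosen after seeing the data. Stag3 became 0.26, 0.37, 0.54 and 0.50, and Rad21l 0.61 with mixed sub-clusters kept. In stroma-like cells Smc1b became 0.68, 0.99 and 0.82 under the last 3 of these settings, and Stag3 0.0761, 0.54 and 0.64. Rec8 between KO and WT kept its direction in germ-like, granulosa-like and epithelia-like cells under all alternatives run.

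Without the library as a covariate of the germ axis, chosen after seeing the data, Smc1b was higher in KO in 10 of 10 bins, Rad21l had an interval above 0 in 3 bins and Rec8 was lower in KO in all 10, bin 1 included. Smc3 was lower in KO in 9 of 10 of these bins, down to -0.55. No paired analysis was possible because each genotype has a single library of pooled embryos.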
